A study of Mus musculus with 7 samples.

Results

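Bbs2, Ciapin1, Cx3cl1, Kifc3, Nup93, Herpud1, Cpne2 and Ogfod1 are protein-coding genes that lie on mouse chromosome 8 within 1 Mb of the metallothionein genes. They are 8 of the 14795 genes of the deposited duodenal table. The set was chosen by its position and was selected on the values reported here, after the genotype differences of these same mice had been seen. For that reason the differences between genotypes of these 8 genes are described and not tested, and nothing about the locus is read from how many of them differ.

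RNA of the duodenum was sequenced from 3 Ppara lox/lox mice, called lox/lox, and from 4 Ppara lox/lox mice that carried Villin-Cre, called I-KO. Villin-Cre acts in the epithelium of the intestine, where it removes the floxed part of Ppara, the gene of the fatty acid sensor PPARα, and the lox/lox littermates kept both floxed alleles without Cre. All mice were males fed a high-fat diet (HFD) according to the methods of the study, which give a predominantly C57BL6/J background, whereas the sample labels give C57BL/6 and no diet. By the labels, food was taken away at 12:00 and given back at 18:00, and tissue was collected at 00:00, while the methods describe mice as fasted before sacrifice unless specified otherwise. Since only I-KO mice carried the transgene, an effect of Villin-Cre itself and an effect of losing PPARα cannot be told apart. Whole tissue was used, so a change in the share of a cell type cannot be told apart from a change in RNA per cell.

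Metallothioneins are small cysteine-rich proteins that bind zinc and copper, and their genes are switched on by the zinc sensor MTF1 through metal response elements, and by glucocorticoids. The genes around them have unrelated jobs. Bbs2 is a subunit of the BBSome, a coat complex that moves membrane proteins in and out of cilia, and Kifc3 is a minus-end directed kinesin that works at adherens junctions of epithelial cells. Ciapin1 hands electrons to the cytosolic machinery that builds iron-sulfur clusters, and Ogfod1 hydroxylates a proline of the ribosomal protein Rps23. Nup93 holds the inner ring of the nuclear pore together. Herpud1 is a membrane protein of the ER that helps degrade misfolded proteins and is induced by ER stress. Cx3cl1 is fractalkine, a chemokine tethered to the cell surface that binds the receptor Cx3cr1 on macrophages and other leukocytes. Cpne2 belongs to the copines, calcium-dependent proteins that bind phospholipids.

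By GENCODE M21 coordinates on GRCm38, the metallothionein genes Mt4, Mt3, Mt2 and Mt1 span chr8:94137197-94180327, which is 43131 bases. Nup93, on the plus strand at chr8:94214564-94317227, was the nearest of the 8, at 34.2 kb from the Mt1 end. Bbs2, on the minus strand at chr8:94067954-94098928, was 38.3 kb from the Mt4 end. Ogfod1, on the plus strand at chr8:94037198-94067921, was 69.3 kb away on the same side, and its last base lies 32 bases before the end of Bbs2. The other members are on the Mt1 side. Herpud1 on the plus strand at chr8:94386438-94395377 was 206 kb away, and Cpne2 on the plus strand at chr8:94532990-94570531 was 353 kb away. Cx3cl1 on the plus strand at chr8:94772009-94782427 was 592 kb away, and Ciapin1 on the minus strand at chr8:94819804-94838358 was 639 kb away. Kifc3, on the minus strand at chr8:95099828-95202812, was the farthest, at 920 kb.

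Sequences of 250 bases before the start were taken from RefSeq for build GRCm38.p6, which had entries for 7 of the 8 genes and none for Kifc3. Shown are Mt2, which rose in I-KO mice, Nup93, the nearest neighbour on its side, and Herpud1, which is known as an ER stress gene. Each is written 5′ to 3′ on the plus strand. Capitals mark the metal response element core, TGCACNC or TGCGCNC on either strand, in Mt2 and Nup93, and the ER stress response element II (ATTGG, any base, CCACG, on either strand) with other CCAAT boxes in Herpud1.

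Mt2, chr8:94172368-94172617: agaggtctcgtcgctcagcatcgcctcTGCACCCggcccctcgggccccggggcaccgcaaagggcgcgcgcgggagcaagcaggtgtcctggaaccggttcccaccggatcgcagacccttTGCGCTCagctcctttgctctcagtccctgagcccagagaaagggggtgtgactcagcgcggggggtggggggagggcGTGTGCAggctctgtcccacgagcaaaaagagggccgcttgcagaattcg
Nup93, chr8:94214314-94214563: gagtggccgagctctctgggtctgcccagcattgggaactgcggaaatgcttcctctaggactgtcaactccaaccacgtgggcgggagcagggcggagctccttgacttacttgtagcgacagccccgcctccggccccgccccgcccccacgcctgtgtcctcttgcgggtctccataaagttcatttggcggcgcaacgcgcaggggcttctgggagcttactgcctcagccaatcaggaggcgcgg
Herpud1, chr8:94386179-94386428: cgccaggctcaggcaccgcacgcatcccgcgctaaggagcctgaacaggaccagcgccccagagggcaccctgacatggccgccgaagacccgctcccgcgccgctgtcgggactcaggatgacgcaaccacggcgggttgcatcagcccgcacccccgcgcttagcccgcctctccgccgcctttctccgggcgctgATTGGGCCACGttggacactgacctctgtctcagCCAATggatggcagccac

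The Mt2 stretch held 3 metal response element cores, 1 of TGCGCNC and 2 of TGCACNC, and the Nup93 stretch held 0. Of the other metallothionein genes, Mt1 and Mt4 each had 1 match to TGCACNC and Mt3 had 0 of either. The windows of Mt1 and Mt4 overlap annotated exons of the genes themselves, and that of Mt2 overlaps an exon of Gm45774. Matches outside the 250 bases are not counted, so these are not totals for a promoter. Among all 32851 promoters of the table, 12.5% held TGCGCNC and 10.4% held TGCACNC within the same 250 bases. Of the 7 members with an entry, Cpne2 had 1 match to TGCGCNC and Bbs2 had 1 match to TGCACNC, and for both genes this window overlaps an annotated exon of the gene itself. The ER stress response element II of Herpud1, with 1 match at 52 bases before the start, occurred in 0.03% of all promoters. None of the 7 members with an entry had a match to the PPAR response element. It was searched on both strands as AGGTCA, any base and AGGTCA again, and was found in only 0.03% of all promoters. Ogfod1 had 3 CCAAT boxes, against 33.9% of all promoters with at least 1, and its window reaches into Nudt21 on the opposite strand. These letter matches describe the windows and do not show that a factor binds there.

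Values are CPM, reads scaled to an adjusted library size, and between 20740121 and 25889488 reads per library fell on listed genes. Gene-level Ppara was 53.4, 49.3 and 63.2 CPM in lox/lox mice and 33.1, 40.6, 47.5 and 69.9 CPM in I-KO mice, so the groups overlapped and the library labelled I-KO 4 was the highest of all. Reads were counted over the whole gene, which also takes up transcripts of the deleted allele and of cells without Cre, so this value does not check the deletion. Mt1 was 41.7, 39.4 and 21.7 CPM in lox/lox mice and 322, 251, 269 and 219 CPM in I-KO mice. Mt2 was 6.22, 5.83 and 2.12 CPM against 94.8, 79.4, 83.5 and 62.6 CPM. Mt4 was listed at 0 in each lox/lox mouse and at 2.20, 2.95, 2.65 and 1.94 CPM in I-KO mice. All 3 rose in limma on log2(CPM + 1) over 13399 genes (adjusted p = 0.00147, 0.00146 and 0.00089), and with 1 further gene, the cytosolic malic enzyme Me1, which fell (adjusted p = 0.0456), they made up the 4 calls of the whole table. The Me1 call was lost under 8 of 12 alternatives. The summed level of 11 pancreatic acinar genes was 396 CPM in I-KO 1 and between 26.2 and 91.7 CPM in the other 6 libraries. Of these, lox/lox 2 was at 91.7 CPM. Summed duodenal position markers were at 399, 369 and 220 CPM in lox/lox 1, lox/lox 2 and lox/lox 3, and at 343 to 443 CPM in I-KO mice. The ileal marker Slc10a2 was at or below 0.51 CPM in each library.

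The BBSome gene Bbs2 was the lowest of the 8, with 4.74, 5.79 and 5.46 CPM in lox/lox mice and 5.80, 6.76, 6.73 and 7.11 CPM in I-KO mice. Each I-KO mouse was above each lox/lox mouse, but the lowest I-KO value and the highest lox/lox value differed by less than the worth of 1 read. The means were 5.33 ± 0.54 (SD, n = 3) and 6.60 ± 0.56 (SD, n = 4), a log2 difference, I-KO minus lox/lox, of 0.26 with a standard error of 0.10. The level rests on 96 to 172 reads per library, and at 96 reads counting alone gives a CV of 10.2%, against a CV among lox/lox mice of 10.1%.

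The kinesin gene Kifc3 was 38.9, 39.0 and 43.4 CPM in lox/lox mice and 54.6, 42.3, 49.7 and 56.3 CPM in I-KO mice. I-KO 2 lay inside the lox/lox range, and the other 3 I-KO mice were above it. Means were 40.4 ± 2.6 (SD, n = 3) and 50.7 ± 6.3 CPM (SD, n = 4), with a log2 difference of 0.31 and a standard error of 0.11.

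Ciapin1 was 47.3, 44.4 and 40.4 CPM in lox/lox mice and 52.9, 51.6, 48.8 and 48.2 CPM in I-KO mice. The groups did not overlap, with 0.99 CPM between the lowest I-KO and the highest lox/lox mouse. Means were 44.0 ± 3.5 (SD, n = 3) and 50.4 ± 2.2 CPM (SD, n = 4), which gives a log2 difference of 0.19 with a standard error of 0.09. Ciapin1 starts head to head with Coq9, a gene of coenzyme Q synthesis, and their annotated ends share 38 bases. The strand setting of the read counting is not given in the sources used here, so reads of stretches where genes overlap cannot be assigned with certainty. Coq9 had a log2 difference of 0.00 with a standard error of 0.09.

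The hydroxylase gene Ogfod1 was 29.3, 28.9 and 32.7 CPM in lox/lox mice and 27.9, 26.4, 27.4 and 30.1 CPM in I-KO mice. The library labelled I-KO 4 was within the lox/lox range and the other 3 I-KO libraries were below it. The log2 difference was -0.11 with a standard error of 0.08. Its neighbours on both sides are close. Nudt21, a subunit of the mRNA cleavage factor that starts 166 bases away on the opposite strand, had a log2 difference of -0.14 with a standard error of 0.11, while Bbs2, whose 3′ end is 32 bases off, lay at 0.26.

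Nup93 was 27.8, 28.8 and 23.9 CPM in lox/lox mice and 24.2, 28.1, 23.1 and 26.1 CPM in I-KO mice. The groups overlapped over most of their range. The log2 difference of -0.08 was smaller than its standard error of 0.10, and leaving out single libraries moved it between -0.16 without lox/lox 3 and -0.03 without lox/lox 2.

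The ER gene Herpud1 was 133, 150 and 131 CPM in lox/lox mice and 121, 128, 135 and 117 CPM in I-KO mice. I-KO 3 was inside the lox/lox range and the other 3 I-KO mice were below it. Means were 138 ± 10 (SD, n = 3) and 125 ± 8 CPM (SD, n = 4), with a log2 difference of -0.14 and a standard error of 0.09.

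Fractalkine, Cx3cl1, was the most abundant of the 8 in CPM, with 172, 159 and 144 CPM in lox/lox mice and 129, 127, 152 and 115 CPM in I-KO mice. Again I-KO 3 reached into the lox/lox range and the other 3 I-KO mice lay below it. The means were 158 ± 14 (SD, n = 3) and 131 ± 15 CPM (SD, n = 4), and the log2 difference of -0.28, with a standard error of 0.11, was the lowest of the 8.

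Cpne2 varied most of the 8 among I-KO mice and least among lox/lox mice. It was 23.40, 22.22 and 24.99 CPM in lox/lox mice, and 18.6, 16.7, 25.4 and 26.8 CPM in I-KO mice. I-KO 1 and I-KO 2 were below and I-KO 3 and the library labelled I-KO 4 above each lox/lox mouse. The CV was 22.6% among I-KO mice and 5.91% among lox/lox mice, and the log2 difference of -0.12 was smaller than its standard error of 0.16. It was -0.06 without I-KO 1, the library with the most acinar transcripts, and -0.01 without I-KO 2.

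**Figure D1:**
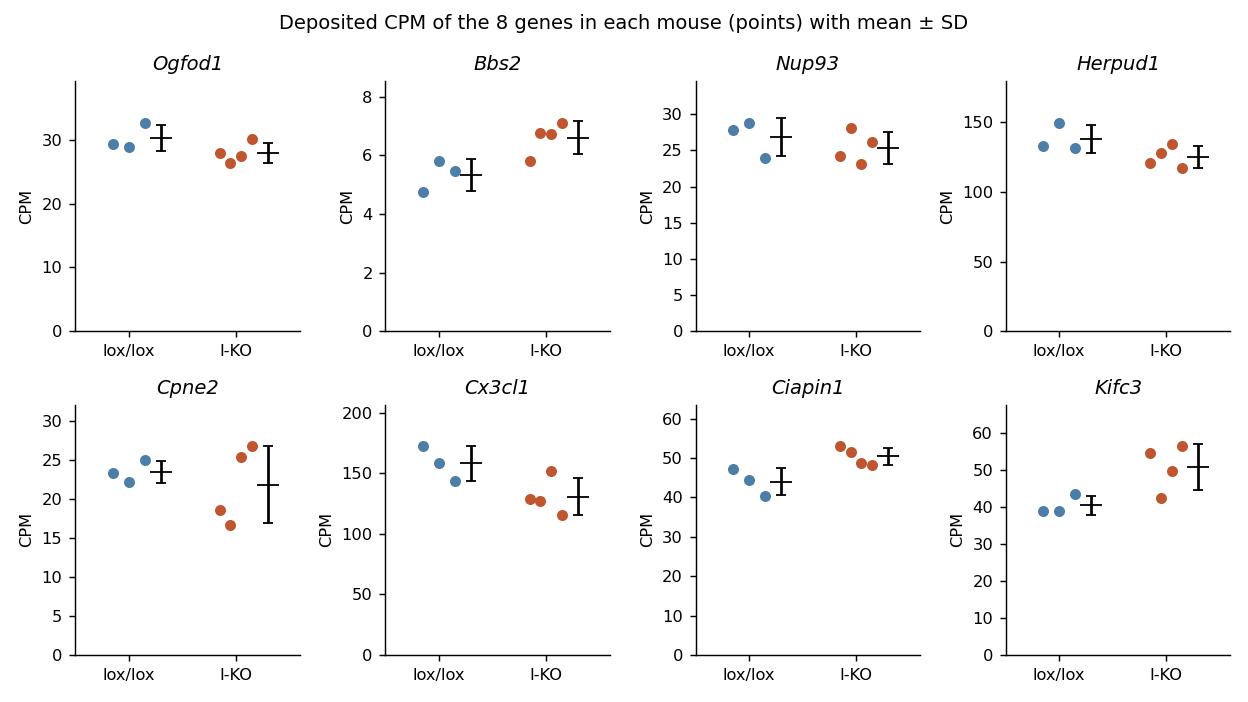
Deposited CPM (vertical axes, from 0) of the 8 genes in each lox/lox mouse (blue, n = 3) and each I-KO mouse (orange, n = 4), with bars for the mean ± SD. Bbs2 and Ciapin1 are the genes without overlap between the groups, and the 4 I-KO values of Cpne2 fall on both sides of the lox/lox values.

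By these values 2 of the 8 genes had all I-KO mice above all lox/lox mice, while 2.91% of the 13399 genes tested did so, and 0 of the 8 had all I-KO mice below, against 3.28% of genes tested. As the genes were picked from these values, nothing is read from these counts. They also depended on the scaling. With median-of-ratios size factors only Ciapin1 had all I-KO mice above, and with each library scaled to its column total 0 genes did, while Cx3cl1 and Herpud1 had all I-KO mice below. The range of log2 differences over the 8 was from -0.28 to 0.31, and 3 were higher and 5 lower in I-KO mice. In comparison, the median absolute log2 difference was 0.17 for the 8 and 0.08 for all genes tested. With I-KO 1 left out, or the library labelled I-KO 4 left out, all 8 log2 differences had the same sign as with all mice.

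Levels of different genes were compared as CPM per kb of annotated exon, averaged over lox/lox mice. The length joins all annotated exons of a gene, 9212 bases for Ciapin1 and 2333 bases for Herpud1. It can exceed the length of the transcripts present, so the order depends on the annotation. Herpud1 was highest with 59.1 ± 4.4 CPM per kb (SD, n = 3), followed by Cx3cl1 with 40.3 ± 3.6 CPM per kb. Then came Kifc3 with 7.62 ± 0.49, Cpne2 with 7.36 ± 0.43, Nup93 with 6.31 ± 0.61, Ogfod1 with 5.18 ± 0.35 and Ciapin1 with 4.78 ± 0.38 CPM per kb. Bbs2 was last, with 1.61 ± 0.16 CPM per kb. Kifc3 and Cpne2 differed by less than the larger of their SDs. The steps from Cpne2 down to Ciapin1 were between 1.07 and 1.84 times the larger SD of each pair. Only the steps from Herpud1 to Cx3cl1, from Cx3cl1 to Kifc3 and from Ciapin1 to Bbs2 were above 4 times that SD. In I-KO mice Herpud1 and Cx3cl1 led as well, with 53.6 ± 3.3 and 33.3 ± 3.9 CPM per kb (SD, n = 4), and Bbs2 was last with 1.99 ± 0.17 CPM per kb.

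The 8 genes are part of a denser neighbourhood, in which 31 genes of the table lie within 1 Mb of the metallothionein span and 29 passed the filter of more than 1 CPM in at least 3 libraries. None of the 21 that are no members passed limma with Benjamini-Hochberg adjustment over all 13399 genes at 0.05, where 0.0299% of all genes tested passed. Of these 21 genes, 3 had an unadjusted p under 0.05, 1 higher and 2 lower in I-KO mice, against 4.74% of all genes tested. The median log2 difference was -0.06 over the 21 genes and 0.00 over all genes tested.

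On the Mt1 side Kifc3 was the last gene inside, and Zfp319, a zinc finger gene at 1143 kb, was the first outside, with a log2 difference of 0.09. On the Mt4 side the carboxylesterase gene Ces1d at 939 kb was the last inside, with a log2 difference of -0.12 and a standard error of 0.27. Its relative Ces1c, at 1006 kb, was the first outside, with a log2 difference of 0.42 and a standard error of 0.09. Members of the Ces1 cluster are closely related copies, and how the counting split shared reads between them is not given in the sources used here.

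**Figure D2:**
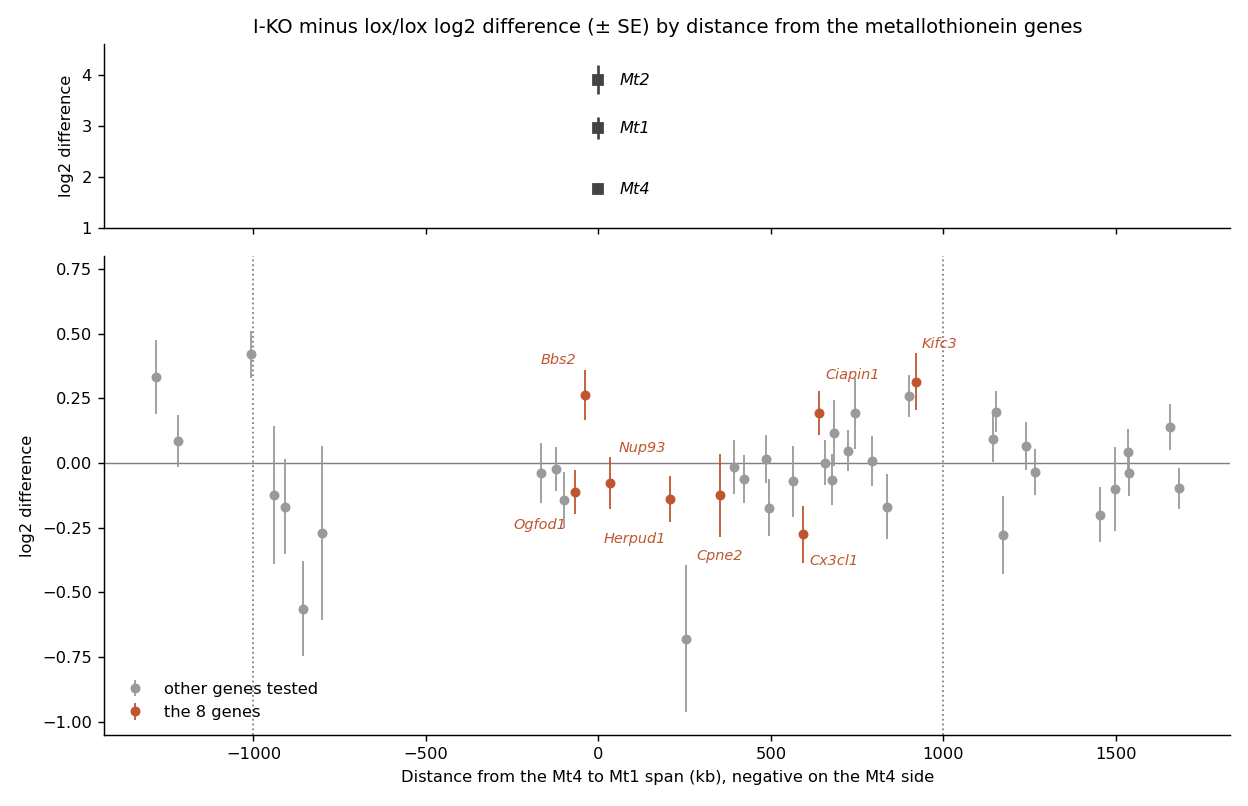
Log2 difference, I-KO minus lox/lox, with its standard error (vertical axes) against the distance in kb from the span of Mt4 to Mt1 (horizontal axis), for the tested genes within 2 Mb. The metallothionein genes are drawn above on their own scale, where the value of Mt4 depends on the pseudocount of 1. The 8 genes (orange) lie between -0.28 and 0.31 and among the other genes (grey), and dotted lines mark 1 Mb.

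Across the chromosome, genes were grouped by distance from the metallothionein span. The 13 tested genes within 0.5 Mb, 5 of them members, had a median absolute log2 difference of 0.11, and the 16 between 0.5 and 1 Mb, 3 of them members, had 0.17. It was 0.10 for 14 genes between 1 and 2 Mb, 0.16 for 6 genes between 2 and 5 Mb, 0.08 for 55 genes between 5 and 10 Mb and 0.08 for 622 genes beyond. By this median the nearest bin was not the highest. It held the lowest single log2 difference of the chromosome, -0.68, while the highest, 1.97, lay beyond 10 Mb. Groups did not overlap for 7.69% of genes within 0.5 Mb, 12.5% between 0.5 and 1 Mb, 21.4% between 1 and 2 Mb and 33.3% between 2 and 5 Mb. This share was 10.9% between 5 and 10 Mb and 9.16% beyond, against 6.19% of all genes tested. The bins below 5 Mb hold few genes, and the first 2 hold the members picked on these differences, so the profile is a description. In the nearest bin 2 of 13 log2 differences were positive, in the next 8 of 16, and among all genes tested 50.6%.

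**Figure D3:**
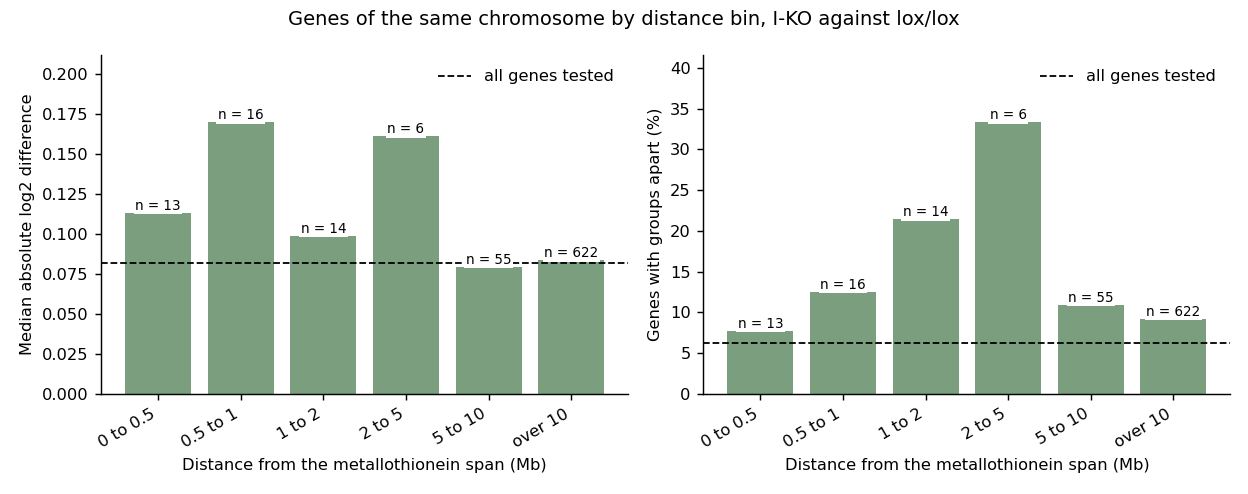
Median absolute log2 difference (left) and percent of genes whose groups do not overlap (right) for tested genes of chromosome 8 in bins of distance from the metallothionein span in Mb, with the number of genes above each bar and the value of all 13399 genes as a dashed line. The bins from 0 to 5 Mb hold between 6 and 16 genes each.

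Each member was then set beside a list of genes of its complex, pathway or family. Of 79 such genes, 74 were tested, and 0 passed the limma test with Benjamini-Hochberg adjustment. At an unadjusted p under 0.05 there were 8, with 3 higher and 5 lower in I-KO mice, which is 10.8% of the 74 against 4.74% of all genes tested. Groups did not overlap for 12.2% of them, against 6.19% of all genes tested. The median log2 difference of the 74 was -0.04, beside 0.00 for all genes tested.

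For Bbs2, the 12 other subunits and assembly factors of the BBSome had a median log2 difference of -0.06, and 4 were higher and 8 lower. Bbs4, a subunit that joins the complex last, lay at 0.31 with a standard error of 0.08, and its 3.26, 3.00 and 3.26 CPM in lox/lox mice were all below the 3.83, 4.05, 4.24 and 4.55 CPM in I-KO mice. It did not pass the test (limma adjusted p = 0.791). At the other end Arl6, the GTPase that recruits the BBSome to membranes, lay at -0.25 with a standard error of 0.11. For Ciapin1, the 10 genes of cytosolic iron-sulfur assembly had a median of 0.05 and groups that overlapped throughout. They ranged from Fam96a, the gene also called Ciao2a, at -0.05 to the glutaredoxin Glrx3 at 0.13.

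For Cx3cl1, the receptor gene Cx3cr1 lay at 0.27 with a standard error of 0.10, the opposite sign to its ligand. Cx3cr1 was 12.4, 13.2 and 13.7 CPM in lox/lox mice and 17.6, 14.6, 17.4 and 14.6 CPM in I-KO mice, without overlap, but did not pass the test (limma adjusted p = 0.954). The summed level of 6 myeloid markers, Cx3cr1 among them, was 208 to 296 CPM in lox/lox and 269 to 329 CPM in I-KO mice, and all 6 had a positive log2 difference. The same held for all 5 smooth muscle, all 5 endothelial, all 4 duodenal position and the 3 tested acinar markers. Positive differences were found for 6 of 8 epithelial, 2 of 5 B and plasma cell and 2 of 6 T and intraepithelial lymphocyte markers. For enteric neuron and glia it was 2 of 5. The part of the myeloid markers in the value of Cx3cr1 was not tested. Adam10, a protease that sheds fractalkine from the cell surface, was lowest of this list at -0.13 with a standard error of 0.11.

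For Kifc3, 7 of 8 kinesin-14 and adherens junction genes had a positive log2 difference, with a median of 0.06 and 0 past the test. Ctnnd1, which encodes p120 catenin, lay at 0.11 and the microtubule minus-end protein gene Camsap1 at -0.18, each with a standard error of 0.08. For Nup93, the 7 genes of the pore's inner ring and central channel had a median of -0.07. Nup35, a direct partner of Nup93, was lowest at -0.29 with a standard error of 0.08, with 12.1, 12.2 and 12.2 CPM in lox/lox mice and 9.24, 10.5, 9.11 and 10.3 CPM in I-KO mice. These groups did not overlap, yet Nup35 did not pass the test (limma adjusted p = 0.822). Nup188 was highest at 0.07 with a standard error of 0.13.

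For Herpud1, 15 of 21 genes of ER-associated degradation and the unfolded protein response had a negative log2 difference, and the median was -0.08, with 0 past the test. In limma 3 had an unadjusted p under 0.05, all lower in I-KO mice. That is 14.3% of the 21, against 4.74% of all genes tested. Creld2, an ER stress-inducible chaperone and not among these 3, was lowest at -0.40 with a standard error of 0.20. It was 86.2, 92.1 and 71.9 CPM in lox/lox mice and 83.1, 67.3, 64.7 and 42.3 CPM in I-KO mice, with overlap. The lectin gene Os9 was highest at 0.13 with a standard error of 0.08. Summed B and plasma cell markers, cells rich in ER, were 3061 to 4369 CPM in lox/lox and 2499 to 4167 CPM in I-KO mice, and their part was not tested.

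For Cpne2, 3 of the 8 other copines were tested, 3 were below the filter and 2 were not analysed here. Cpne8 lay at 0.26 with a standard error of 0.11 and Cpne3 at -0.16 with a standard error of 0.13. For Ogfod1, its substrate gene Rps23 and 7 related hydroxylase genes had a median of -0.10. They reached from Jmjd6 at -0.17, with a standard error of 0.15, to Ogfod3 at 0.15, with a standard error of 0.08.

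**Figure D4:**
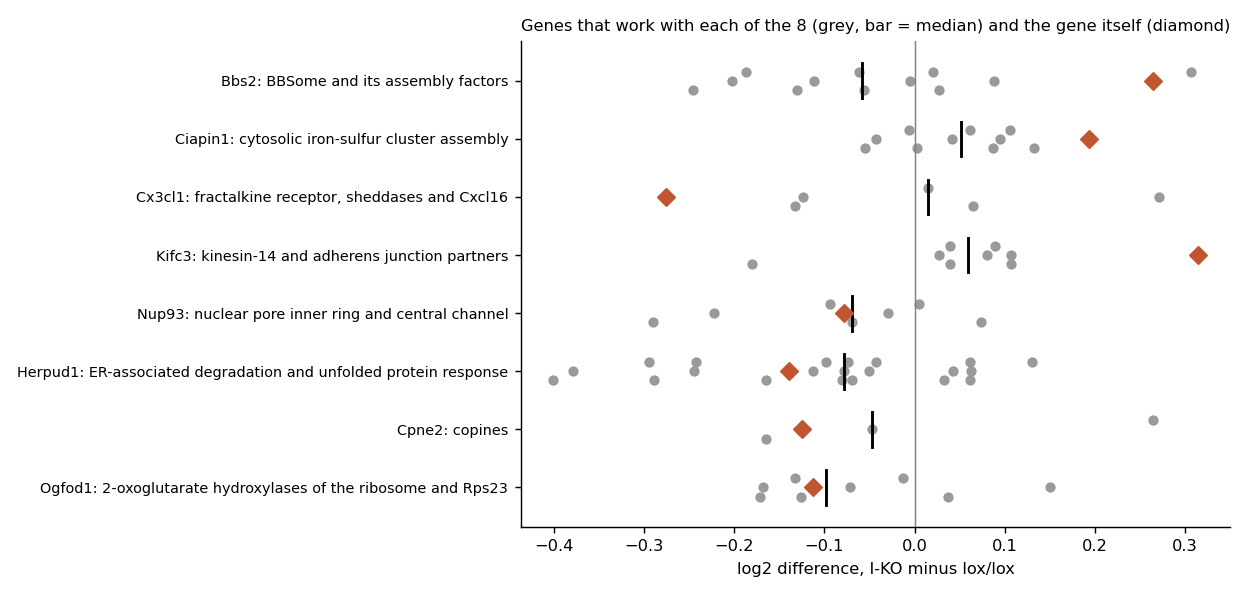
Log2 difference, I-KO minus lox/lox (horizontal axis), of the tested genes in each list (grey points, with a black bar for the median) and of the member itself (orange diamond). Bbs2, Ciapin1 and Kifc3 lie to the right and the other 5 genes to the left of their list's median, and no grey gene passed the adjusted test.

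Among metal genes outside the locus no adjusted call was made either. Mtf1, the zinc sensor, was 40.9, 36.6 and 42.4 CPM in lox/lox mice and 34.7, 38.3, 41.2 and 33.9 CPM in I-KO mice, a log2 difference of -0.11 with a standard error of 0.10. The zinc exporter Slc30a1 lay at -0.08, the zinc importer Slc39a4 at 0.19 and the manganese exporter Slc30a10 at 0.12.

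Differences between mice of the same genotype were used to see which neighbours varied together. Each value was expressed as the deviation from its own group mean on the log2 scale, and Pearson's r was taken over the 7 libraries. All 406 pairs of tested genes within 1 Mb had a median r of -0.01 and a range from -0.95 to 0.99. The 28 pairs of members had a median r of -0.09, with 13 positive, and a range from -0.73 to 0.83. Among member pairs the highest r was that between Ogfod1 and Kifc3, which are on opposite sides of the metallothionein genes, while the adjacent Ogfod1 and Bbs2 had 0.20. The lowest member pair was Ogfod1 with Ciapin1. These values share libraries and rest on few mice, so they are descriptions without a test.

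**Figure D5:**
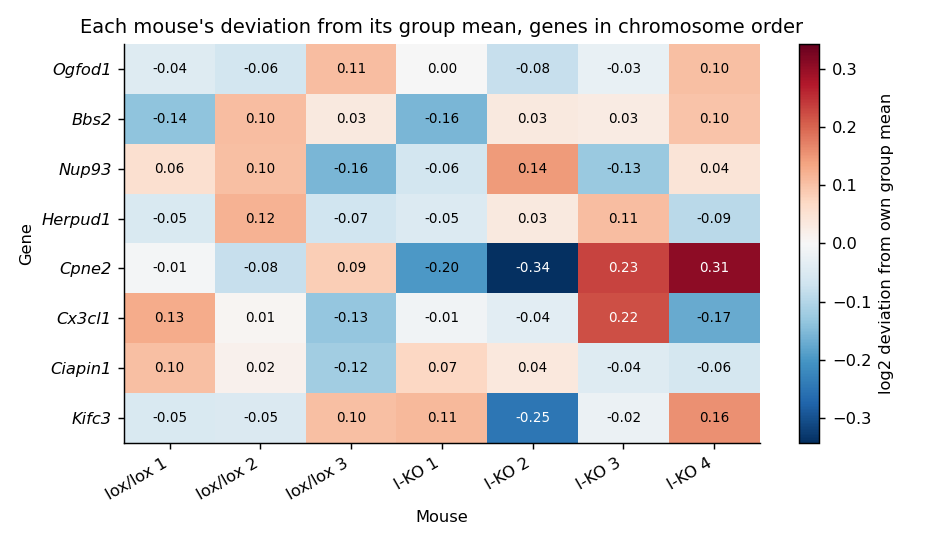
Deviation of each mouse (columns) from its own group mean on the log2 scale for the 8 genes (rows, in chromosome order), with the value printed in each cell. Cpne2 spans the widest range, from -0.34 in I-KO 2 to 0.31 in the library labelled I-KO 4, and no mouse is high or low for all 8 genes.

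For each member the gene elsewhere in the table with the highest Pearson r of log2 values over the 7 libraries was also taken. These were Siglec1 for Bbs2 (r = 0.98), a macrophage receptor gene, Ptges3l for Ciapin1 (r = 0.98), 1700011J10Rik for Kifc3 (r = 1.00) and Pdk4 for Ogfod1 (r = 0.97), a kinase gene that limits glucose oxidation. Psmb7 was found for Nup93 (r = 0.98), a proteasome subunit, and Gpr160 for Cx3cl1 (r = 0.98), an orphan receptor. Klrd1 was most like Cpne2 (r = 0.98), a receptor of natural killer and T cells, and 5730508B09Rik was most like Herpud1 (r = 0.96). Between 13 and 100 genes per member had an r above 0.9, and all points share the same 7 libraries, so a high r over so few libraries singles out no gene. Pdk4 was 29.82, 21.02 and 59.25 CPM in lox/lox mice and 13.03, 11.63, 15.47 and 27.86 CPM in I-KO mice, so its likeness to Ogfod1 includes the step between genotypes.

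The remaining marker sums describe the libraries, and a summed CPM does not measure the share of a cell type. Epithelial markers summed to 31446 to 36584 CPM in lox/lox and 31059 to 38798 CPM in I-KO mice, smooth muscle to 941 to 1169 and 978 to 1373 CPM, and endothelium to 86.1 to 104 and 96.9 to 124 CPM. T and intraepithelial lymphocyte markers summed to 180 to 186 CPM in lox/lox and 137 to 255 CPM in I-KO mice, and enteric neuron and glia markers to 7.40 to 8.20 and 7.47 to 8.24 CPM. The groups overlapped in each of these sums. A sum follows its most abundant genes, and Apoa1 alone held 13409 to 17093 CPM of the epithelial sum in lox/lox mice. Within that list Fabp1 had all I-KO mice below, at a log2 difference of -0.57, and Vil1 all above, at 0.14. Neither passed the adjusted test.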

How the data were processed

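The authors deposited 1 table of signal values, which are read counts normalized to CPM and rounded to 2 decimals, with 14795 named genes and 7 duodenal libraries of stranded mRNA read with 100 base single reads. The submitters' processing notes name FastQC 0.11.2, TopHat2 2.0.13, Picard 1.80, HTSeq 0.6.1 and edgeR with the build mm10. A line without a gene name was left out. Low values are multiples of the worth of 1 read, but the share within 0.1 of a step was below 95% in 4 libraries, so count tests were not run and the steps served to give the depth. Intervals were not drawn from reads, since reads cover counting error only.

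The 13399 genes above 1 CPM in 3 libraries or more entered a limma fit (limma 3.58.1, R 4.3.3) of log2(value + 1) on genotype alone, two-sided and Benjamini-Hochberg adjusted at 0.05, after tests on simulated data. A count model, which the study used, was replaced because the values are normalized. Tables were made with Python 3.11.15 and pandas 2.3.3. By symbol, 13896 genes were found in GENCODE M21 and 750 more through RefSeq synonyms. P-values measure the spread between these mice. No pair of replicates was alike within counting error (lowest chi-square per degree of freedom 13.9).

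The 8 members, the lists of genes of their complexes, pathways and families, the marker lists and the tests were chosen with earlier results of these data known. Named are the members, Ppara, Mt1, Mt2 and Mt4, tested genes within 1 Mb without overlap between groups (not reported here beyond the members), the tested genes next to the span and to the 1 Mb limit, the genes with the largest and smallest log2 difference of each list, and for each member the most similar gene elsewhere. Me1, Coq9, Nudt21, Rps23, Slc10a2, Mtf1, Slc30a1, Slc39a4, Slc30a10, Apoa1, Fabp1 and Vil1 were named in addition, after their values were seen. Also tried were column totals, median-of-ratios size factors, no filter, a pseudocount of 0.5, windows of 0.5 and 2 Mb, a replicate block and each library left out.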

Additional observations from a re-analysis of the deposited data

Results flagged for a closer look

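Among 22 sets of 4 I-KO values, for the 8 genes, Ppara, 3 metallothionein genes and 10 marker sums, 1 had a library far from the others. The summed pancreatic acinar markers were 396 CPM in I-KO 1, with 26.2 to 41.3 CPM in I-KO 2, I-KO 3 and the library labelled I-KO 4, and the gap took up 0.959 of the range, above Dixon's 95% critical value for 4 samples. Chance flags about 1 in 20 groups. Values of lox/lox mice were not searched in this way. None of the 8 genes had such a library. Without I-KO 1 the log2 differences were 0.32 for Bbs2, 0.17 for Ciapin1, 0.28 for Kifc3, -0.27 for Cx3cl1, -0.12 for Herpud1, -0.11 for Ogfod1, -0.06 for Nup93 and -0.06 for Cpne2.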

How the results depend on the processing

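Among the tested genes near the locus that are no members, and among partner genes, the 0 calls stayed at 0 under each alternative. Windows of 0.5 and 2 Mb were included. Partner genes at an unadjusted p under 0.05 in limma ranged from 2 of 74 without lox/lox 2 to 11 of 74 with column totals. Under these 2 settings 430 of 13339 and 563 of 13374 of all genes tested had such a p. The whole table gave 3 to 5 calls. Mt1, Mt2 and Mt4 passed under each alternative, whereas Me1, with adjusted p between 0.0223 and 0.243, did not with column totals, a pseudocount of 0.5 or the replicate block, nor without I-KO 1, I-KO 2, I-KO 3, lox/lox 1 or lox/lox 3. The 96 recomputed log2 differences of the 8 genes kept their sign, and none moved by more than 1 SD between mice. Leaving out each library gave 0.20 to 0.32 for Bbs2, 0.13 to 0.25 for Ciapin1, 0.26 to 0.40 for Kifc3, -0.35 to -0.21 for Cx3cl1, -0.16 to -0.03 for Nup93, -0.18 to -0.08 for Herpud1, -0.23 to -0.01 for Cpne2 and -0.15 to -0.06 for Ogfod1. Whether groups overlap was less stable. With median-of-ratios size factors 1 gene, Ciapin1, had all I-KO mice above. With column totals 0 genes did and 2, Cx3cl1 and Herpud1, had all I-KO mice below, while the shares of all genes tested became 1.69% above and 4.44% below. The columns sum to between 969589 and 1098618, with the highest sum in I-KO 3. Beside Bbs2 and Ciapin1, groups also no longer overlapped for Cx3cl1 and Herpud1 without I-KO 3, Ogfod1 without the library labelled I-KO 4, Cx3cl1 and Kifc3 without lox/lox 3, and Kifc3 without I-KO 2. Fewer libraries separate more easily. Of all genes tested, 4.53% had all I-KO mice above and 4.73% below without I-KO 3. These shares were 5.7% and 6.8% without the library labelled I-KO 4. They were 7.66% and 8.12% without lox/lox 3, and 5.4% and 5.72% without I-KO 2.

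Same-numbered libraries had correlations of deviations of -0.01, 0.18 and -0.01, and 1 of 6 correlated best with its own number, so the numbers were not taken to pair the mice. With the replicate block, in which the library labelled I-KO 4 has no partner, the calls were 3 in the whole table and 0 near the locus and among partner genes, and Cpne2 was at -0.23 and Kifc3 at 0.26. At 96 to 172 reads per library, depth limits Bbs2 most.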
